A study of Mus musculus with 6 samples.

Results

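The genes described here encode transcription factors of the KLF, SP, SOX, FOX, GATA, TBX and RUNX families, measured by RNA sequencing in mDCT15 cells. mDCT15 is a murine line labelled as distal convoluted tubule cells, after the short nephron segment that fine-tunes salt and magnesium reabsorption. Members were chosen by symbol, not by level, as rows named *Klf*, *Sp*, *Sox*, *Fox*, *Gata*, *Tbx* or *Runx* followed by a number or a subfamily letter and number, which gave 75 genes of 20624 in the table. The rule also left out 1 symbol of this form, which is not reported here, so the family counts and shares below do not include it. The study sequenced 3 samples of *Pkd1*-/- cells, made by CRISPR-Cas9 editing, and 3 samples of wild type cells. Both were cultured in the same serum-supplemented medium, and the paper describes no further treatment of the sequenced cells. It does not state whether serum was still present when their RNA was taken. The sample titles call the edited cells *Pkd1*-/-, while their genotype field reads knockdown, and the sources used here do not give the number of edited clones. All levels below are the authors' mean over the 6 samples of both genotypes, given as a normalized read count (the count divided by a size factor for the library). They are therefore descriptions of the line as a whole, and no comparison between the genotypes was made. A level, rank or share given here may therefore hold in only 1 of the genotypes. Since the values are pooled, no replicate error can be attached to them, the depth of each sample is unknown, and it cannot be said whether neighbours in an order of levels differ beyond their spread.

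KLF and SP proteins share a type of DNA-binding domain, and the other families differ in theirs. Many members of these families set cell identity in development and respond to growth signals in adult tissue. KLF and SP proteins bind GC-rich elements, the GC box and the CACCC box, through a row of zinc fingers at the C-terminus. SOX proteins bend DNA through an HMG box, FOX proteins bind through a winged-helix forkhead domain, GATA proteins through GATA-type zinc fingers, TBX proteins through a T-box and RUNX proteins through a Runt domain that pairs with the cofactor CBFB.

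The rows were first compared with markers of the tissue. Of 14 listed markers of the distal convoluted tubule, 8 had a row and 5 had a mean normalized count of at least 100. These were the kinase gene *Wnk1* (8468) and, far below it, *Stk39* (621), *Kcnj16* (428), *Wnk4* (413) and *Hsd11b2* (122). The remaining rows, *Kcnj10* (38.3), *Trpm6* (29.6) and *Klhl3* (5.70), were below that limit. No row was analysed here for the defining sodium-chloride cotransporter gene *Slc12a3* or for *Pvalb*, *Calb1*, *Fxyd2*, *Emx1* and *Sall3*. The kidney epithelial genes *Pax8* (4905), *Cdh16* (4680.0) and *Pax2* (2428) were well counted, while *Krt8* had a mean of 0.980 and *Cdh1* no row. The endocytic receptor gene *Lrp2*, listed for the proximal tubule, had a mean of 8826, and the other 4 genes of that list lay between 2.04 and 169. Of the 5 fibroblast markers, *Col1a1* reached 201 and the others at most 6.01, and the endothelial markers with a row reached at most 4.68. The immune markers with a row reached at most 41.9, the only collecting duct marker with a row had a mean of 0.618, and neither of the listed markers of the thick ascending limb had a row. The targeted gene *Pkd1* had a mean of 3175 over both genotypes, which does not check the labels. Over all rows the means summed to 16746088, of which the 2 highest rows held 8.08%.

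The promoters of the 4 members with the highest means are shown, since the SP and KLF proteins among them bind GC-rich promoter elements of this kind. Each window covers 250 bases before the annotated start of the canonical transcript and 50 bases from it, on the gene's strand, in GRCm39. Capitals mark the GC box (GGGCGG) and would mark the CACCC box (CCACCC), each searched on both strands. The motifs can share bases where they adjoin, and 0 bases of these windows lay in both. The *Sox4* window lies at chr13:29137647-29137946 (minus strand), the *Sp1* window at chr15:102314430-102314729 (plus strand), the *Klf6* window at chr13:5911231-5911530 (plus strand) and the *Foxk2* window at chr11:121150536-121150835 (plus strand).

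Sox4: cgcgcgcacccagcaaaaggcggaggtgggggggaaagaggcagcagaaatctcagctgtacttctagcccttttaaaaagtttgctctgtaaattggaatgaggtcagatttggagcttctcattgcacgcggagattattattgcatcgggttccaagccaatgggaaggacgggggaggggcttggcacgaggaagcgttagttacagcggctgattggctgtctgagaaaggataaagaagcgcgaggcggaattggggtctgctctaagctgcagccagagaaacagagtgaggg

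Sp1: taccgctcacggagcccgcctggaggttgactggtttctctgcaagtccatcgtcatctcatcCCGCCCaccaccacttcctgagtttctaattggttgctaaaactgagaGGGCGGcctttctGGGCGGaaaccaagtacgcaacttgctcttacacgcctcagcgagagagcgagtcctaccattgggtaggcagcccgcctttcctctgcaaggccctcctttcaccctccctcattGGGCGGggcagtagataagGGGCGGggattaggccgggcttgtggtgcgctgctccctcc

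Klf6: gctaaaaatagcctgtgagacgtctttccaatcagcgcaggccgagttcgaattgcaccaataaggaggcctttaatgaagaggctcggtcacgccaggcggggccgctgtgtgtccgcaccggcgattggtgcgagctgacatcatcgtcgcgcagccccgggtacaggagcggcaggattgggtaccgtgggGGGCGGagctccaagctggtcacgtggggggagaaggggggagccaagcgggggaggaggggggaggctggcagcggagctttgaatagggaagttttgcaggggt

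Foxk2: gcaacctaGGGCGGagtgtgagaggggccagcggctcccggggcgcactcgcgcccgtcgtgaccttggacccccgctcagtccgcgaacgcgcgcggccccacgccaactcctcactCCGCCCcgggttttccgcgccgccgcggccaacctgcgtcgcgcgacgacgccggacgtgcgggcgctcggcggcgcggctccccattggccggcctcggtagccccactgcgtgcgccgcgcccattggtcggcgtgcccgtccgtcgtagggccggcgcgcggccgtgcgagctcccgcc

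The *Sp1* window held 5 GC boxes, the *Foxk2* window 2 and the *Klf6* window 1, whereas the *Sox4* window held 0. None of these windows held a CACCC box. A match is a string of letters and not a shown binding site.

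The members ranged from well counted to barely counted, with mean normalized counts between 0.683 and 6173. Of the 75 genes, 58 (77.3%) had a mean normalized count of at least 10, 44 (58.7%) of at least 100 and 17 (22.7%) of at least 1000. Over all rows these shares were 66.5%, 50.3% and 20.9%, and over the 13862 protein-coding rows 85.3%, 72.9% and 31.0%, so the members' shares lay between those of all rows and those of protein-coding rows. The median member had a mean of 214, against 474 for protein-coding rows. To compare genes with each other, the means were divided by the length of the canonical transcript, and the median member then stood at 53.8 normalized counts per kilobase, against 141 for protein-coding rows. A further 37 annotated genes of these families had no row among those analysed here.

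**Figure D1:**
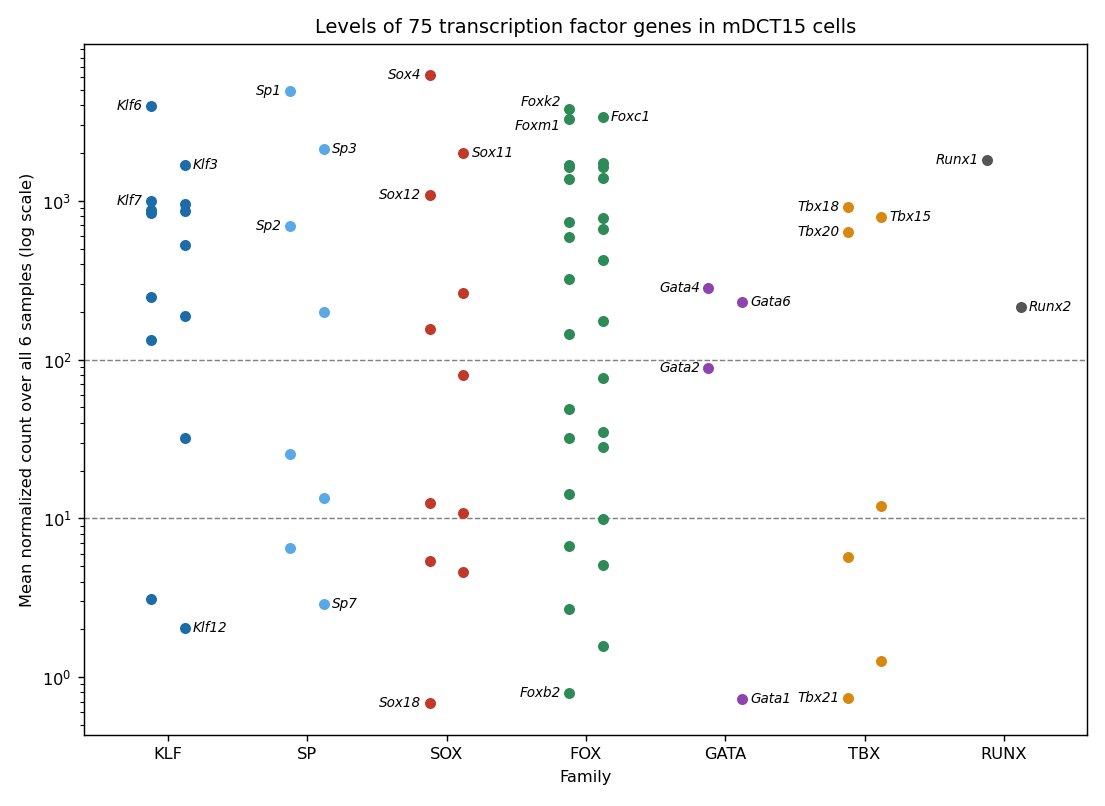
Mean normalized count over all 6 samples (y axis, log scale) of each of the 75 genes, by family (x axis); 1 point is 1 gene, dashed lines mark means of 10 and 100, and points are offset sideways only for legibility. The highest point is *Sox4* (6173) and the lowest *Sox18* (0.683), both in the SOX family.

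*Sox4* was the member with the highest level. This single-exon gene (chromosome 13, 29132902 to 29137696, minus strand) encodes a SoxC factor that acts in progenitor cells of many organs. Its mean normalized count was 6173, the 306th highest of all rows, and its level per kilobase was 1287, at percentile 96.7 of the rows with a gene model. It ranked 1 of 75 whether the mean was divided by the transcript length, the coding length, the length of all annotated exons, or by none. Of its exon bases, 18.9% overlap an antisense RNA gene, *A330102I10Rik*, which had no row among those analysed here.

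The other SoxC genes followed it within the family. *Sox11* had a mean of 2016 and *Sox12* of 1094, with 243 and 246 normalized counts per kilobase, and both of these paralogs, which act redundantly with *Sox4* in development, stood below it. Per kilobase of coding length *Sox11* (1702) stood above *Sox12* (1161), so their near equality holds for the transcript length and not for the coding length. Together the SoxC genes made up 92.3% of the summed SOX level per kilobase, a share of 95.4% with coding lengths and 94.0% with all annotated exons. The SoxE genes *Sox8* (262) and *Sox9* (157), the latter a factor of kidney tubule development and repair, made up 6.08%, or 3.68% with coding lengths. The SoxD genes *Sox13* (80.4), *Sox6* (10.8) and *Sox5* (5.40), the SoxB gene *Sox21* (12.5), *Sox15* (4.57) and the endothelial SoxF gene *Sox18* (0.683) were counted far less. Of the 19 annotated SOX genes, 11 had a row.

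In the SP family a few genes held nearly all of the level. *Sp1*, a widely expressed activator of GC-box promoters, had a mean of 4915 and a level of 623 per kilobase. *Sp3*, its closest competitor for the same element, had a mean of 2120.5 and 521 per kilobase. *Sp2* stood at 699 (228 per kilobase) and *Sp4* at 199 (34.4 per kilobase). The later members, which act in limb, bone and tooth development, had means of 25.5 for *Sp8*, 13.5 for *Sp6*, 6.52 for *Sp9* and 2.90 for *Sp7*. The genes *Sp1* to *Sp4* thus made up 99.2% of the summed SP level per kilobase, and at least 99.0% with the other lengths.

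The genome sets these SP genes in pairs, and in each pair the gene of the *Sp1* to *Sp4* group had the higher level. *Sp7* lies 35.2 kb from *Sp1* on chromosome 15, *Sp6* lies 30.4 kb from *Sp2* on chromosome 11, *Sp9* lies 291 kb from *Sp3* on chromosome 2 and *Sp8* lies 545 kb from *Sp4* on chromosome 12. Per kilobase, *Sp1* stood 726-fold above *Sp7*, *Sp3* 361-fold above *Sp9*, *Sp2* 61.1-fold above *Sp6* and *Sp4* 5.92-fold above *Sp8*. With coding lengths the ratios were 928, 213, 32.5 and 4.85, in the same order. With all annotated exons they were 769.6, 224, 56.3 and 6.99. The value of *Sp6* is uncertain, since 81.9% of its exon bases overlap the antisense RNA gene *Gm11532* (mean of 6.0).

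**Figure D2:**
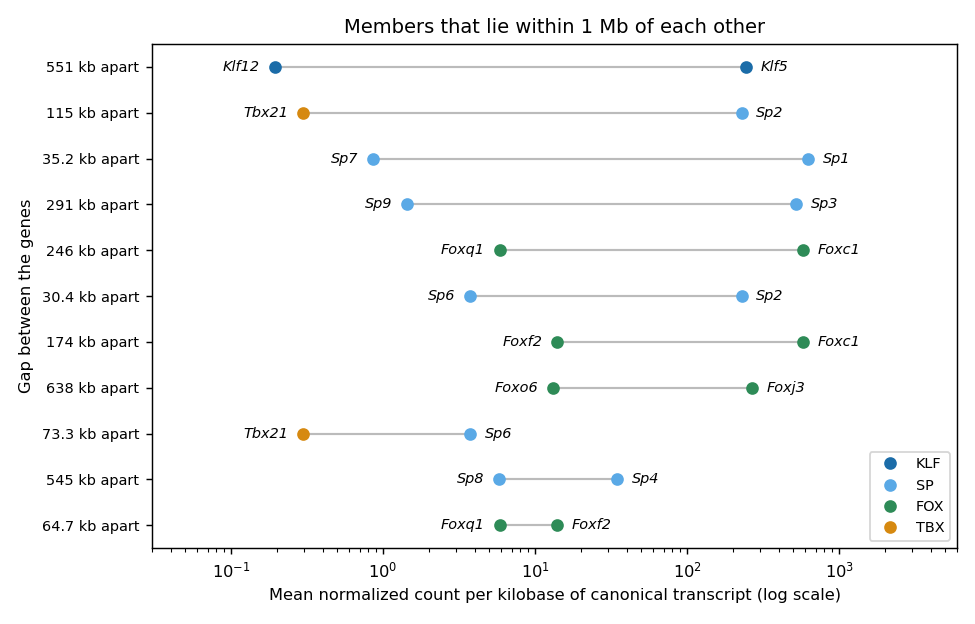
Level per kilobase of canonical transcript (x axis, log scale) of members that lie within 1 Mb of each other; each of the 11 lines joins 1 pair, colours give the family and the y axis the gap between the genes. The widest line joins *Klf12* (0.193) and *Klf5* (245), and the narrowest *Foxq1* (5.85) and *Foxf2* (14.0).

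In the KLF family, 11 of 14 genes had a mean of at least 100, and the median gene stood at 679. *Klf6*, a zinc finger activator induced by injury and growth signals, led it with a mean of 3975 and 941 normalized counts per kilobase, 34.4% of the family's summed level. It lies on the plus strand of chromosome 13, from 5911481 to 5920393, and has 4 exons in its canonical transcript. The other activators of the same subgroup were *Klf7* (996), *Klf5* (833), a factor of epithelial proliferation, *Klf2* (247), a gene induced by fluid flow in endothelium, *Klf4* (133) and the erythroid factor *Klf1* (3.11). The *Klf1* value is uncertain, since 52.7% of its exon bases overlap *Gcdh* (mean of 633) on the other strand.

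Most KLF repressors with a row were also well counted. *Klf3*, which recruits the corepressor CtBP, had a mean of 1674 (318 per kilobase), while its subgroup partner *Klf12* had a mean of 2.05 (0.193 per kilobase), the lowest of all members per kilobase of transcript or of all exons. Per kilobase of coding length it stood at 1.70, above 6 other members, of which *Tbx21* (0.467) was lowest. Per kilobase of all annotated exons *Klf3* stood lower, at 112, since its annotated exons cover 14998 bases against 5262 in the canonical transcript. All 5 genes with a row in the SIN3-binding subgroup had means of at least 100. These were *Klf10* (961) and *Klf11* (525), both early response genes of TGF-beta, *Klf13* (872), *Klf16* (860.0) and the glucocorticoid-induced *Klf9* (189). *Klf15*, another steroid-responsive member, had a mean of 32.2.

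Among the FOX genes, the largest family with 29 rows of 45 annotated genes, 17 had means of at least 100. *Foxk2* led by mean, at 3809.9 (706 per kilobase), and its paralog *Foxk1* stood at 1384 (186 per kilobase). Both encode forkhead factors that control metabolic and autophagy genes. *Foxc1*, a factor of mesoderm and kidney development, had a mean of 3363 (576 per kilobase). *Foxm1*, which drives genes of the G2 and M phases in dividing cells, had a mean of 3288 (645 per kilobase).

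The FoxP repressors depended on the length chosen. *Foxp1* had a mean of 1736 and ranked 3 of 75 per kilobase of its canonical transcript (939), but that transcript has only 1848 bases against 16169 bases in all annotated exons. Per kilobase of all exons its level was 107. *Foxp4* had a mean of 1646 (399 per kilobase) and *Foxp2*, best known from the brain, 32.1. The share of the FoxP genes in the summed FOX level was 26.2% with canonical transcripts, 13.7% with coding lengths and 11.6% with all exons.

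AKT holds most FoxO factors in the cytoplasm when insulin or growth factors are present, and all FoxO genes were listed. *Foxo3* had a mean of 1643, *Foxo1* of 775, *Foxo4* of 739 and *Foxo6* of 76.7. Per kilobase, *Foxo3* (239) and *Foxo4* (229) were close, and *Foxo1* (89.5) stood lower. Per kilobase of coding length the grouping differed, with *Foxo3* at 815, *Foxo4* at 487 and *Foxo1* at 396. The FoxN and FoxJ groups were led by the checkpoint repressor *Foxn3* (1693) and by *Foxj3* (1364), followed by *Foxj2* (661) and *Foxn2* (595). *Foxj1*, the master regulator of motile cilia, had a mean of 144 (55.0 per kilobase), and the thymic factor *Foxn1* 5.07.

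Further FOX genes with roles in the kidney or in mesenchyme stood in the middle of the range. *Foxd1*, a marker of stromal progenitors of the kidney, had a mean of 427 (84.4 per kilobase) and *Foxd2* 34.9. *Foxf1*, a factor of gut and lung mesenchyme, had a mean of 319.9 (129.7 per kilobase) and its paralog *Foxf2* 48.9 (14.0 per kilobase). The pioneer factor *Foxa1* stood at 174, while *Foxa3* (9.95) and *Foxa2* (6.70) were each below a mean of 10. *Foxb1* (14.2), *Foxh1* (2.68), *Foxi3* (1.57) and *Foxb2* (0.798) were the remaining low members, and *Foxh1* shares 20.3% of its exon bases with *Ppp1r16a* (mean of 837) on the other strand. No row was analysed here for *Foxi1*, the factor of intercalated cells.

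A stretch of chromosome 13 holds neighbouring FOX genes with unequal levels. *Foxq1* (from 31740117 to 31744959), *Foxf2* (from 31809663 to 31816393) and *Foxc1* (from 31990616 to 31996459) lie on its plus strand. Their levels were 5.85, 14.0 and 576 per kilobase, so *Foxc1* stood 98.3-fold above *Foxq1* and 41.2-fold above *Foxf2*.

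**Figure D3:**
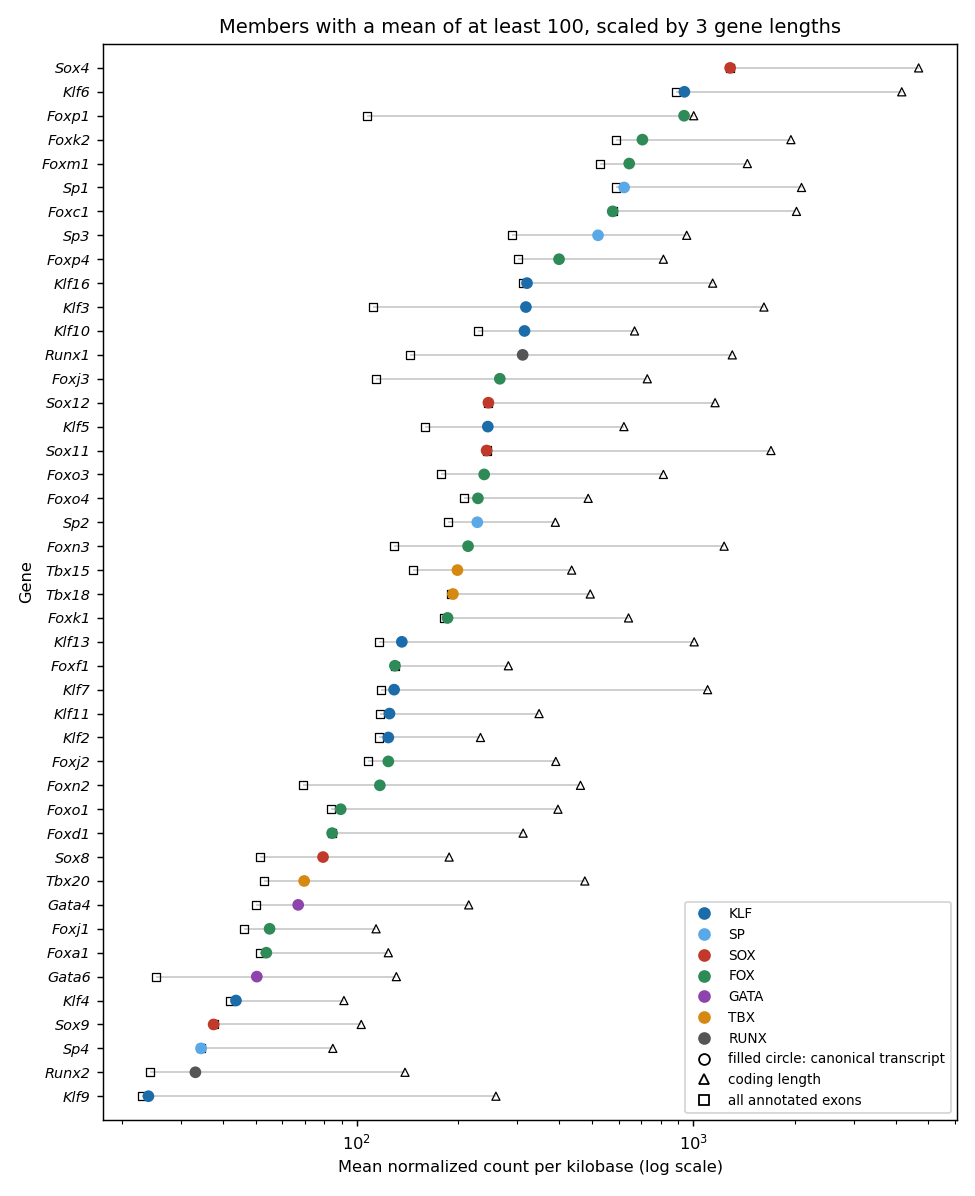
Mean normalized count per kilobase (x axis, log scale) of the 44 members with a mean of at least 100 (y axis), scaled by the canonical transcript (filled circle, coloured by family), the coding length (triangle) or all annotated exons (square). *Sox4* is highest on each scale, and *Foxp1* moves from 939 to 107 between the transcript and all exons.

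In the TBX family nearly all of the level lay in a single subfamily. *Tbx18*, a gene of the mesenchyme around the ureter, had a mean of 909 (193 per kilobase), *Tbx15*, a factor of skeletal and fat development, 786 (199 per kilobase) and the heart factor *Tbx20* 635 (69.7 per kilobase). These are paralogs of *Tbx1* (1.26), and the *Tbx1* subfamily made up at least 98.5% of the summed TBX level per kilobase with each of the lengths. *Tbx2* (11.9), *Tbx6* (5.69) and the T-cell factor *Tbx21* (0.743) held the rest. *Tbx18* shares 21.0% of its exon bases with a tentative gene model on the other strand, *D030062O11Rik*, which had a mean of 18.1.

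Of the 4 GATA genes analysed here, *Gata4* (284, or 66.9 per kilobase) and *Gata6* (232, or 50.4 per kilobase), which act in heart, gonad and endoderm, were close to each other. *Gata2*, a factor of blood and of the collecting duct, had a mean of 88.7 (24.8 per kilobase) and the erythroid *Gata1* 0.731. *Gata4* and *Gata6* made up 82.3% of the summed level of these 4 genes per kilobase. In the RUNX family, *Runx1*, a regulator of blood stem cells that epithelia also use, had a mean of 1822 (311 per kilobase), and *Runx2*, the bone factor, 214 (33.1 per kilobase).

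**Figure D4:**
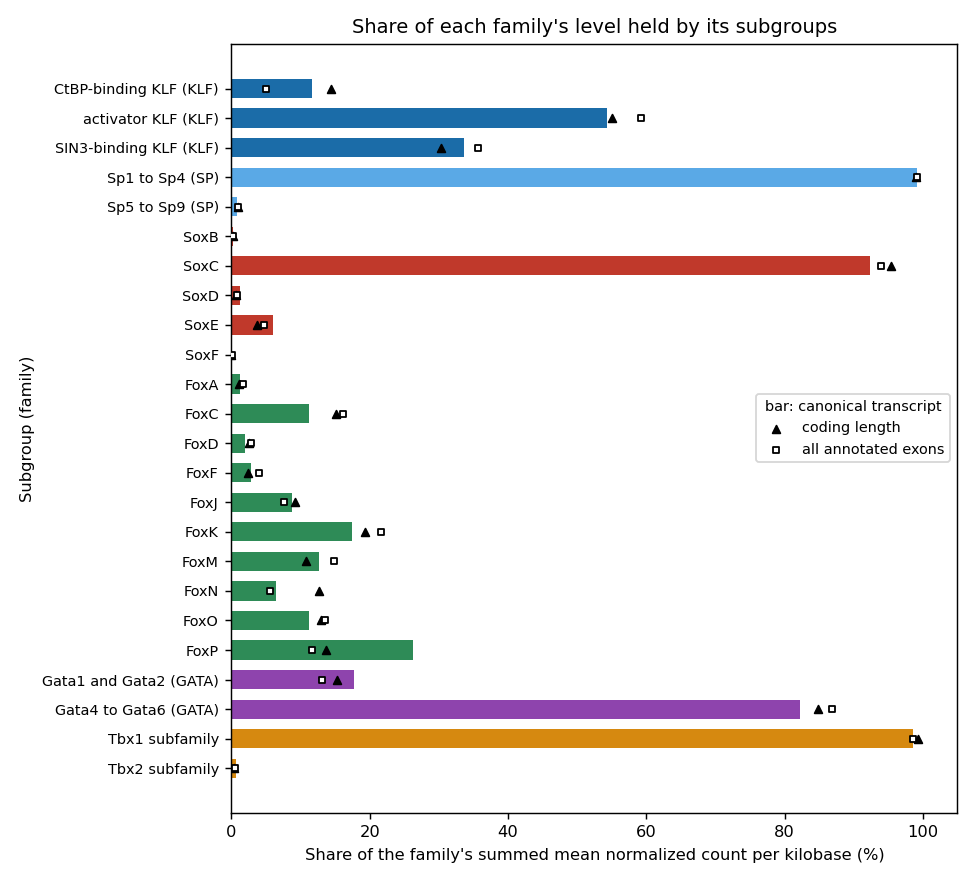
Share (x axis, %) of each family's summed level per kilobase that its subgroups held (y axis), with canonical transcripts (bars), coding lengths (triangles) and all annotated exons (squares). The genes *Sp1* to *Sp4*, the SoxC genes and the *Tbx1* subfamily each held at least 92.3% of their family on each scale.

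Genes whose products work with these factors were also examined. Of 39 listed partners, 38 had a row, and all 38 had a mean of at least 100. Their median was 1734 and their range 102 to 15882, against a median of 214 for the members. Over protein-coding rows, 72.9% had a mean of at least 100 and the median was 474. The partners were listed by name and not sampled, and these differences were not tested. The RUNX partner *Cbfb* had a mean of 2369 (814 per kilobase), above *Runx1* on both scales. The GATA cofactors *Zfpm2* and *Zfpm1* had means of 1212 and 484, and per kilobase (164 and 108) both stood above *Gata4*. The KLF corepressors *Ctbp1* (4096), *Ctbp2* (1214), *Sin3b* (1753) and *Sin3a* (1680.4) were all well counted. The FoxO-binding 14-3-3 protein gene *Ywhae* had the highest mean of the list (15882), the kinase gene *Akt1* stood at 3787 and *Sgk1* at 688. The lowest of the list was *Lef1* (102).

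Across the promoters, the share of members with a GC box was above that of protein-coding rows as a whole. At least 1 GC box was found in 51 of 75 windows (68.0%), against 56.8% of the 13862 windows of protein-coding rows. By level, the share was 72.7% for the 44 members with a mean of at least 100 and 58.8% for the 17 with a mean under 10, against 62.8% and 35.2% of protein-coding rows in the same ranges. Of the families, KLF had the highest share (12 of 14 windows) and SOX the lowest (4 of 11). Member windows also had a higher median content of G and C, 63.3% against 58.0% in protein-coding rows. The part of this content in the GC box shares was not tested. A CACCC box was found in 26 member windows (34.7%), against 36.5% of protein-coding rows. The median ratio of observed to expected CpG was 0.804 in members with a mean of at least 100 and 0.371 in those under 10. Over protein-coding rows in the same ranges of mean, the medians were 0.748 and 0.342. The lower ratio at low means was therefore not particular to the members, and their ranges overlapped widely (0.187 to 1.21 and 0.0742 to 1.05). *Runx1* combined a mean of 1822 with a ratio of 0.187 at its canonical start, the lowest among the members with a mean of at least 100. Only 1 start per gene was examined, and reads from transcripts with other starts could not be separated. The ratio may therefore not describe the promoter that supplied the *Runx1* reads. These shares are descriptions with no test.

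**Figure D5:**
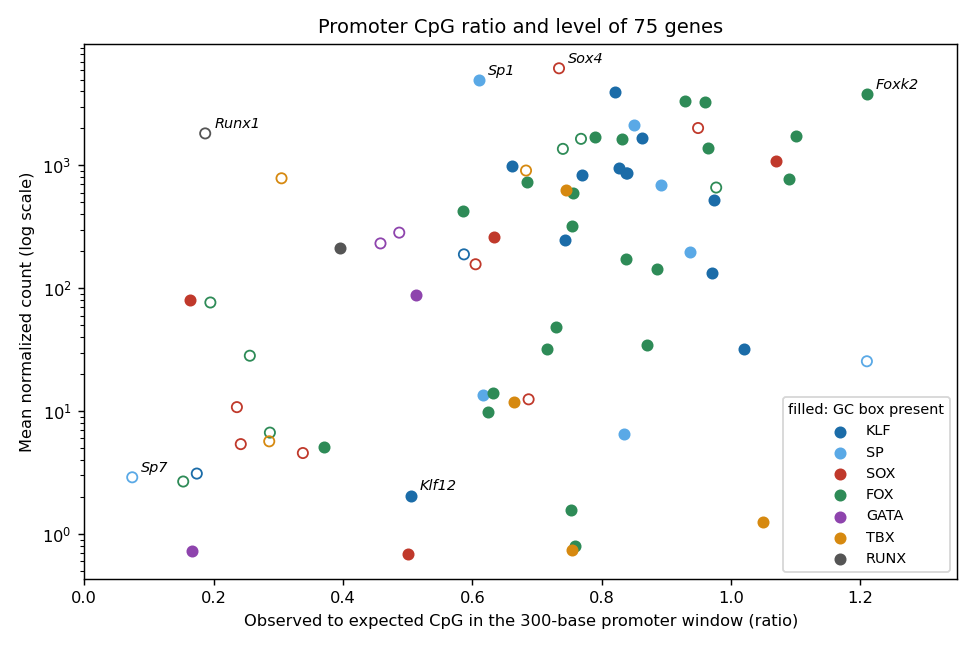
Observed to expected CpG ratio of the 300-base promoter window (x axis) and mean normalized count (y axis, log scale) of the 75 genes, coloured by family; filled points hold at least 1 GC box and open points none. *Runx1* lies at 0.187 with a mean of 1822 and *Foxk2* at 1.21 with a mean of 3809.9. Each window is that of the canonical start, and other starts of a gene were not examined.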

How the data were processed

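Total RNA of 3 *Pkd1*-/- and 3 wild type samples was sequenced following removal of rRNA. The authors trimmed reads with Trim Galore 0.4.5, mapped them with STAR 2.7.5a to GRCm39, counted them per gene with HTSeq 0.11.0 at default parameters and ran DESeq2 1.22.0 in R 3.5.3. The value used here is the signal the authors deposited as a mean normalized count over all 6 samples, not scaled by gene length. A cutoff of 5 counts per sample is stated for the comparison, yet 5385 rows had a mean under 5. The deposited fold changes, standard errors, Wald statistics, p-values and adjusted p-values are the authors' own comparison of the genotypes and were not used, so the planned test of the genotypes was replaced by a description. Samples were grouped by their titles.

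Gene models came from GENCODE M39 on GRCm39, found for 20122 (97.6%) of the identifiers. Means were divided by the canonical transcript length, with the coding length and the length of all annotated exons as alternatives, the last of these added after seeing the data. No filter was applied. Promoter windows were read from GRCm39. The motif search was tested on simulated data. Exons of 42 members overlap a gene on the other strand and those of 3 (*Foxm1*, *Foxp1* and *Foxj2*) one on the same strand, and their values are uncertain: HTSeq-count by default assigns reads by strand, but the strand orientation of the libraries is not given in the sources used here. The members, lists and subgroups were chosen with earlier results of these data known. By rule the text names each member whose mean reached 100 and the 3 highest of every family; the remaining members were named after their values were seen. Python 3.11.15, pandas 2.3.3, numpy 2.4.6 and matplotlib 3.10.9 were used.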

Additional observations from a re-analysis of the deposited data

How the results depend on the processing

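The number of members with a mean normalized count of at least 100 was 44, and it was 47 at a limit of 50 and 31 at a limit of 500. No member symbol was repeated, so summing repeated rows left 44. At a limit of 10 there were 58 members, against 64 at a limit of 5 and 53 at 20. The order by level depended more on the length. Of the 10 members with the highest level per kilobase of canonical transcript, 6 stayed among the 10 highest with coding lengths: *Foxp1*, *Sp3*, *Foxp4* and *Klf16* gave way to *Sox11*, *Klf3*, *Runx1* and *Foxn3*, whose coding part is a smaller share of the transcript. With all annotated exons, an alternative chosen after seeing the data, 9 stayed, and with no scaling 8. The depth of single samples is unknown, so precision at low means cannot be given. No paired analysis was possible because the values used here are means over all 6 samples. The alternatives written for counts of single samples, with replicates left out among them, were not run for the same reason.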
